A study of Mus musculus with 15 samples.

Results

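The cytosolic ribosomal protein genes were followed across whole mouse eyeballs of 2 Huntington's disease models and their wild-type (WT) littermates. Members were all genes with an Rpl or Rps symbol of the usual form, with the 3 stalk genes and Rpsa, that had a probe set carrying this symbol alone. This gave 67 members among 22180 genes with such a probe set, and where a gene had several the one with the highest mean over the 15 arrays was used. They fall into 23 genes of the small (40S) subunit, 32 of the large (60S) subunit, 3 of the P stalk, and 9 paralogs or copies. A further 20 genes of the same symbol form in the RefSeq annotation were not members, because 12 lie only on probe sets shared with other symbols and 8 lie on no named probe set.

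The cytosolic ribosome is built from ribosomal RNA and one copy of most ribosomal proteins, and the acidic P stalk proteins recruit the elongation factors. These proteins are made in matched amounts, largely through a pyrimidine tract at the 5′ end of their mRNAs that places translation under mTOR control. A few members have paralogs that take their place in particular tissues, such as Rpl3l in striated muscle and Rpl10l and Rpl39l in testis.

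RNA of eyeballs was measured on Affymetrix Mouse Gene 2.1 ST arrays, and the values are log2 RMA expression values deposited as processed. The groups, as labelled, were R6/1 mice at 6 months of age (n = 3) with WT littermates of the same age (n = 4), and R6/2 mice at 9 weeks of age (n = 4) with WT littermates of that age (n = 4). R6/1 and R6/2 mice carry a transgene for an exon 1 fragment of mutant HTT with an expanded CAG repeat. The repeat count was 131 ± 3.1 in R6/1 and 162 ± 2.8 in R6/2 (mean ± SD, given by the study over all its time points). The models thus differ in repeat length as well as in age. All groups are labelled with the strain C57BL/6J, and both models were sampled at the symptomatic stage. By the study's methods the isolated RNA was pooled to make the 15 samples, and how many mice a pool held is not given in the sources used here, so p-values measure only the spread between these samples.

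An array labelled WT 6 months (replicate 4) goes against its label. Opn1sw, the short-wave cone opsin, measured 2.51 to 3.01 in the R6/1 arrays, against 3.48 in that array and 7.46 to 7.84 in the other WT arrays of 6 months. The study's methods also give 3 WT and 4 R6/1 samples at this age, where the labels give 4 WT and 3 R6/1. No fit counted WT replicate 4 as R6/1. Groups follow the labels, and some values at this age are also given without that array. The whole eyeball contains retina, lens, pigment epithelium, glands and attached muscle, and markers of each were present. In bulk tissue, fewer cells of a type and less RNA per cell cannot be told apart. Array medians lay between 2.78 and 2.95, and the interquartile range between 2.17 and 2.61. A gene was called when limma's p was under 0.05 and its Benjamini-Hochberg adjusted p, taken over all 22180 genes, was under 0.20, the threshold in the study's methods.

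Members were about as even in level as all genes. Of the 67, 49 were above the median of every array (49.6% of all genes were), 7 were below it on every array (32.8% of all genes), namely Rpl10l, Rpl27a, Rpl30, Rplp2, Rps15, Rps16 and Rps20, and 11 lay on both sides. The median SD of a member over the 15 arrays was 0.203 log2 units, against 0.211 for all genes. A level on this platform depends on the probes, so members are not ranked against each other. Rps6, the 40S protein phosphorylated by the S6 kinases, is an example of an even member. It measured 9.37, 9.38 and 9.49 in R6/1 arrays, against 9.27, 9.33, 9.42 and 9.40 in WT arrays of 6 months. In R6/2 arrays it measured 9.25, 9.36, 9.20 and 9.32, against 9.27, 9.32, 9.28 and 9.27 in WT arrays of 9 weeks. All 15 values lie between 9.20 and 9.49, the groups overlap, and none of its comparisons passed the test.

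Rps3a1 was less even, with an SD of 0.859 over the 15 arrays. It encodes the 40S protein eS1, which sits near the site where mRNA leaves the small subunit. Its start region is shown with that of Rps6 and of 6 genes described with age, to set the letters around the annotated starts side by side. Each line gives 30 bases of the GRCm38.p6 reference, from 18 before the RefSeq start site to 12 from it on, with capitals marking the longest run of a C followed by at least 6 further C or T. A marked run lies in the window and was not shown to be in the mRNA, and that of Rpl4, 13 bases long from base -17, ends before the annotated start.
Rps3a1: ttcttaaagccggaagggcgaaagagcaag
Rps6: gttaagcggaagtcgggCCTCTTTTTCgtg
Rpl28: gtcccgcctctcgtgtCTCTCTTTCCgtct
Rpl41: cgacacacgggccggctcggaagtgacgac
Rps7: agagcttccggtttccacccacctacttcc
Rpl35: agtcggccccgCCCTTTCCTCTTTCTCTCg
Rps27: aggatttccgctttcgCTCCTTTCCggcgg
Rpl4: tCTTTCCTTTTCCTgtgggagcagccgggt

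These windows are chr3:86142657-86142686 (minus strand) for Rps3a1, chr4:86857356-86857385 (minus) for Rps6, chr7:4792947-4792976 (plus) for Rpl28 and chr10:128549157-128549186 (minus) for Rpl41. The others are chr12:28635942-28635971 (minus) for Rps7, chr2:39005120-39005149 (minus) for Rpl35, chr3:90213637-90213666 (minus) for Rps27 and chr9:64173369-64173398 (plus) for Rpl4. RefSeq start regions were matched for 52 of the 67 members. A pyrimidine run of this kind, read on the sense strand, was found in 26 of these 52 (50%), against 16.8% of all 27025 genes with a start region. Rps3a1, Rpl41 and Rps7 have none in the 30 bases, which says only that these letters are not in this window at the annotated start. The letters CCGGAA or their complement TTCCGG, the core of the ETS family motif, occurred between 250 bases before and 50 after the start in 30 members (57.7%), against 16.7% of all genes. Rps3a1 holds them, as do Rps6, Rpl41, Rps7, Rpl35 and Rps27, whereas Rpl28 and Rpl4 do not.

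The first comparison asked which members differ in R6/2 eyes at 9 weeks. Rps3a1 was lower in R6/2 eyes and no other member was called. The gene measured 6.86, 6.71, 6.23 and 6.21 in R6/2 arrays, against 7.88, 8.60, 7.77 and 8.01 in WT arrays of 9 weeks. All 4 R6/2 arrays lay below all 4 WT arrays. The means were 6.50 ± 0.34 in R6/2 and 8.06 ± 0.37 in WT (SD, n = 4 each), a log2 fold change of -1.56 (SE 0.27, 95% interval -2.14 to -0.98) and a ratio of 0.339. By limma's p it came first among members and had rank 4 of all genes, with an adjusted p of 0.181. Of all 22180 genes, 17 were called (0.0766%), 10 lower (0.0451%) and 7 higher (0.0316%). Rps3a1 was the 1 member of 67 called lower, and 0 members were called higher. At an unadjusted p under 0.05 there were 2 members, Rps3a1 and Rps16, against 7.81% of all genes.

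The call for Rps3a1 lies near the threshold. The log2 fold change stayed between -1.68 and -1.39 when each array was left out in turn, and its adjusted p over the alternatives ran from 0.0172 to 0.554. The call was lost without any single R6/2 array, without WT 9 weeks replicate 1, 2 or 4 and without R6/1 replicate 1 or 3 (adjusted p 0.201 to 0.554). It was also lost when arrays were centred on their medians (0.244) and when every probe set was its own feature (0.239), a fit in which 0 of 41345 probe sets were called in R6/2 and 0.00484% in R6/1. Without the array labelled WT 6 months replicate 4 the adjusted p was 0.0824. A second Rps3a1 probe set lay between 1.46 and 1.87 on all 15 arrays, near the bottom of the scale, and differed by -0.10 between R6/2 and WT, so that the mean of both probe sets gave -0.83.

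In the same R6/2 arrays, markers of other eye tissues moved. All 13 fast skeletal muscle markers measured had a fold change below 0, 12 of them at p under 0.05 and 2 called, and their mean level per array was 5.06 to 6.39 in R6/2 against 7.02 to 7.48 in WT. Of 8 cone markers 7 were below 0 and 1 above 0, and 7 were at p under 0.05. Of these cone markers 3 were called lower, and the mean level of all 8 was 3.99 to 4.29 in R6/2 against 5.18 to 5.95 in WT. All 7 macrophage and microglia markers were above 0, none of them called, at a mean level of 3.32 to 3.45 in R6/2 against 3.12 to 3.27 in WT. All 10 lens markers were above 0, also with no call (8.86 to 8.96 in R6/2 against 8.31 to 9.00 in WT). Of 8 gland markers 4 were at p under 0.05 and none was called, with a median of -0.56 and a mean level of 3.30 to 4.71 in R6/2 against 3.55 to 5.97 in WT. The part of these lists in the Rps3a1 difference was not tested. In the array labelled WT 6 months replicate 4, Opn1sw and Myh4, a fast muscle myosin, were at 3.48 and 5.95, near the levels of R6/1 arrays. Rps3a1 was at 8.47 there, the level of the other WT arrays and of R6/1 replicate 2 (8.47). R6/1 replicates 1 and 3 were at 6.94 and 7.22. As the label of this array is in doubt, its values do not show how Rps3a1 goes with these markers.

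R6/1 eyes at 6 months gave 0 members called in either direction, where all genes gave 2 called higher (0.00902%) and 0 lower. Unadjusted p was under 0.05 for 2 members, Rps3a1 and Rps7, against 3.1% of all genes. Rps3a1 measured 6.94, 8.47 and 7.22 in R6/1 arrays, against 8.50, 8.42, 8.17 and 8.47 in WT arrays of 6 months. R6/1 replicates 1 and 3 lay below every WT array, whereas replicate 2 lay at the WT level, so the groups overlap. The log2 fold change was -0.84 (SE 0.30, 95% interval -1.47 to -0.22, adjusted p 1.00). It was -1.31 without R6/1 replicate 2 (adjusted p 0.390), -0.54 without R6/1 replicate 1 and -0.68 without R6/1 replicate 3. Without the array labelled WT replicate 4 it was -0.82 (adjusted p 1.00). Counted as R6/1, that array (8.47) would lie with replicate 2 (8.47) at the WT level, and this grouping was not fitted. The change in R6/1 less that in R6/2 was 0.72 for Rps3a1 (95% interval -0.14 to 1.58, adjusted p 1.00), and was not called. By limma, 0 genes were called in that comparison, and at an unadjusted p under 0.05 there were 665 genes (3%) and 1 member, Rps14 at 0.54 (adjusted p 1.00).

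Markers of other tissues differed in these R6/1 arrays too. Cone markers, 7 below 0 and 1 above 0, had a mean level of 3.97 to 4.04 in R6/1 against 4.32 to 6.09 in WT of 6 months. In the 3 WT arrays other than replicate 4 it was 5.58 to 6.09. Fast muscle markers were at 5.72 to 6.86 in R6/1 against 5.31 to 7.80 in WT, and 7.22 to 7.80 in those 3 WT arrays. All 8 rod markers were below 0, 6 of them at p under 0.05 and none called, with a mean level of 7.97 to 8.26 in R6/1 against 8.34 to 8.76 in WT. Pigment epithelium markers were at 5.99 to 6.41 in R6/1 against 6.42 to 6.70 in WT, 3 of 7 at p under 0.05 and none called. Macrophage and microglia markers were at 3.45 to 3.66 in R6/1 against 3.33 to 3.42 in WT, with no call. Without the array labelled WT replicate 4, 6 of 8 cone, 6 of 13 fast muscle, 1 rod and 1 pigment epithelium marker were called lower and still 0 members, where 0.185% of all genes were called lower and 0.0496% higher. The part of these markers in the Rps3a1 values was not tested.

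**Figure D1:**
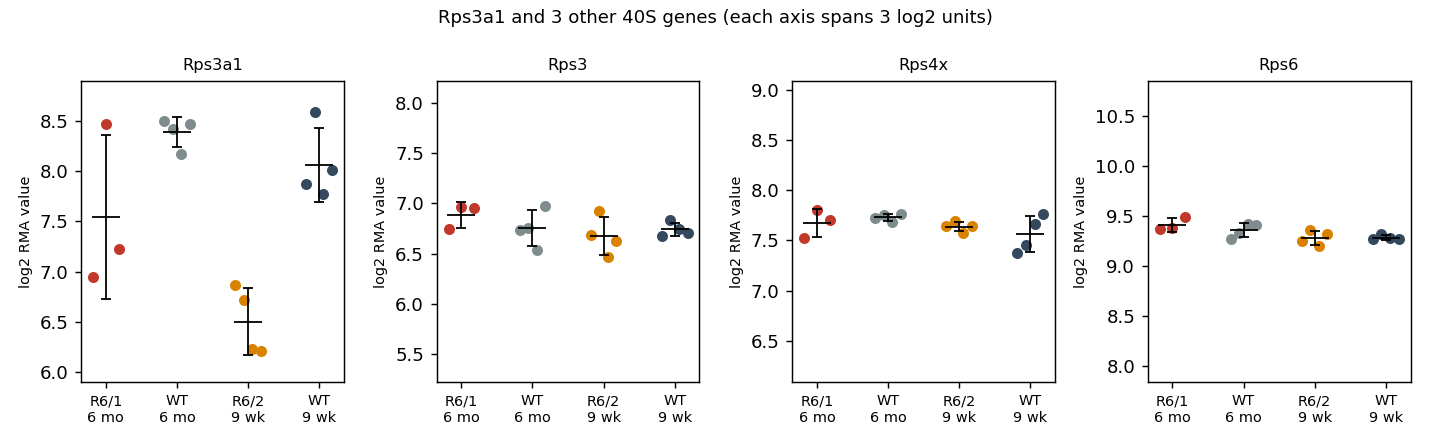
Log2 RMA values (y axis) of Rps3a1 and of the 40S genes Rps3, Rps4x and Rps6 in each array (points) of the 4 groups (x axis), with group mean and SD (bars). Rps3a1 lies between 6.21 and 6.86 in R6/2 arrays, against 7.77 to 8.60 in WT arrays of 9 weeks, while R6/1 replicate 2 at 8.47 lies among the WT arrays.

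Rps3a1 was also set against the other 66 members in each array. Its value less the mean of the other members was 1.35, 1.23, 0.71 and 0.73 in R6/2 arrays, against 2.36, 3.12, 2.33 and 2.46 in WT arrays of 9 weeks. In R6/1 arrays this difference was 1.49, 2.89 and 1.77, against 3.01, 2.90, 2.86 and 2.97 in WT arrays of 6 months. The absolute fold change of Rps3a1 was the largest of the 67 in both model comparisons, and 12th in size between the WT ages. In R6/1 it was not called, and without R6/1 replicate 2 the change of Rpl3 (1.41) was larger in size than that of Rps3a1 (-1.31). The other members centred on 0 with the rest of the table. The median log2 fold change over all 67 was 0.01 in R6/2 (38 above 0) and 0.04 in R6/1 (43 above 0), beside 0.02 and 0.01 over all genes. Above 0 were 56.7% of members against 54.7% of all genes in R6/2, and 64.2% against 52.2% in R6/1. Without the array labelled WT 6 months replicate 4 the R6/1 median of the members was 0.06. In R6/2, 60S genes had a median of 0.03, 40S genes -0.01, stalk genes 0.01 and paralogs or copies -0.12. In R6/1 the medians were 0.04 for 60S genes, 0.07 for 40S genes, 0.03 for stalk genes and 0.01 for paralogs or copies.

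**Figure D2:**
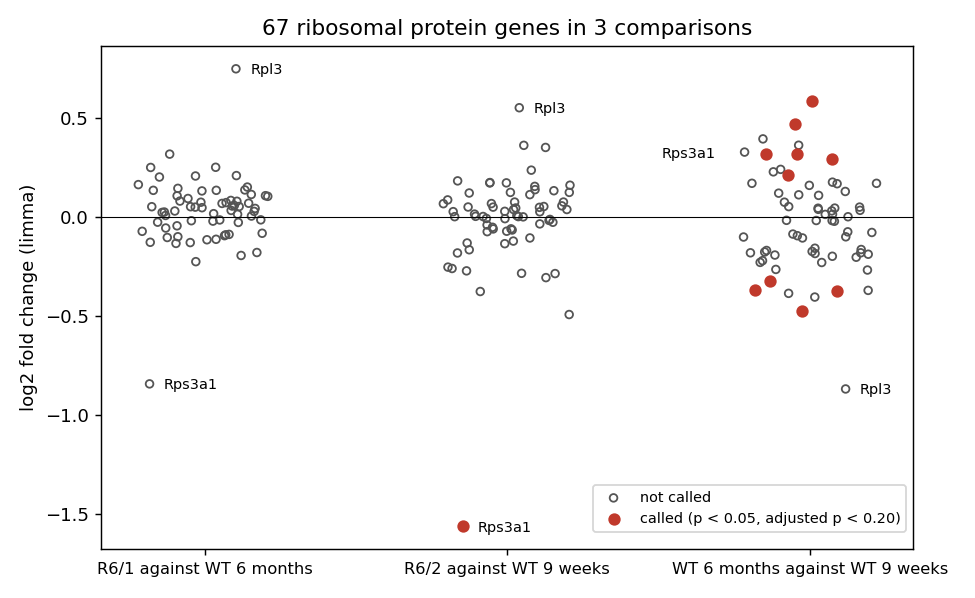
Log2 fold change (y axis) of each of the 67 members (points) for the R6/1 model, the R6/2 model and WT age (6 months less 9 weeks). Filled points were called, which in the model comparisons is Rps3a1 in R6/2 (-1.56) only, while Rpl3 is wide in every comparison (0.75, 0.55 and -0.87) without being called.

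Other members with low p in the model comparisons did not pass the adjustment. Rps16, a 40S protein whose probe set lies below the median on every array, measured 2.02, 1.40, 1.71 and 1.70 in R6/2, against 2.61, 1.86, 1.98 and 2.35 in WT of 9 weeks. The groups overlap, and the change was -0.49 (SE 0.18, adjusted p 0.535). With the replicate number as a block its adjusted p was 0.137 and 2 members were called lower. A brighter probe set that Rps16 shares with 2 other symbols, looked up after these values were seen, measured 7.57, 7.73, 7.74 and 7.55 in R6/2, against 7.49, 7.47, 7.56 and 7.67 in WT, a change of 0.10 (adjusted p 0.963). Rpl38, a 60S protein known in mice for the translation of Hox mRNAs, measured 7.69, 7.98, 7.89 and 8.13 in R6/2, against 7.53, 7.68, 7.36 and 7.68 in WT. Its groups did not overlap, and the change of 0.36 (SE 0.18) had an adjusted p of 0.654. Rps27 measured 4.70, 4.31, 4.48 and 4.34 in R6/2, against 4.06, 4.28, 4.14 and 3.96 in WT, a change of 0.35 (adjusted p 0.736). The lowest R6/2 array lies just above the highest WT array. In all, 3 members were higher without overlap in R6/2 (Rpl38, Rps27 and Rpl30; 3.54% of all genes) and 1 was lower (Rps3a1; 1.69%). In R6/1 this held for 1 member higher (Rpl21 at 0.14, against 1.46% of all genes) and 0 lower (1.68%). The margin for Rpl21 is very thin, with the lowest R6/1 array at 10.4477 and the highest WT array of 6 months at 10.4476. The Rpl30 probe set lies below the median on every array. A brighter one shared with Gm12191 overlapped, at 8.47, 8.55, 8.54 and 8.55 in R6/2, against 8.59, 8.53, 8.53 and 8.63 in WT. So did a brighter one that Rps27 shares with Rps27rt, at 8.61, 8.74, 8.50 and 8.52, against 8.50, 8.66, 8.66 and 8.74. Both were looked up after these values were seen. Rps7, a 40S protein, measured 2.68, 3.14 and 2.72 in R6/1, against 2.58, 2.36, 2.50 and 2.68 in WT of 6 months. Its highest WT array reached the level of the lowest R6/1 arrays, and the change was 0.32 (SE 0.13, adjusted p 1.00). The only probe set of Rps7 lies on both sides of the array medians.

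Rps14, a 40S protein, was the member with the lowest p for a difference between the models. Its only probe set lies on both sides of the array medians. Rps14 measured 3.39, 2.94 and 3.43 in R6/1, against 3.03, 2.93, 3.30 and 2.75 in WT of 6 months. In R6/2 it measured 2.93, 3.16, 2.71 and 2.99, against 3.23, 3.06, 3.59 and 3.05 in WT of 9 weeks. Both pairs of groups overlap, and neither the R6/1 change of 0.25 nor the R6/2 change of -0.29 was called (adjusted p 1.00 in R6/1 and 0.707 in R6/2).

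The paralogs gave no call in either model. Rpl3l, which replaces Rpl3 in striated muscle, measured 3.96, 2.74, 3.77 and 3.47 in R6/2, against 4.05, 3.70, 3.65 and 4.06 in WT of 9 weeks. The R6/2 array at 2.74 (replicate 2) is also the one with the lowest Myh4 (4.37). The groups overlap, with a change of -0.38 (SE 0.28, adjusted p 0.818), beside a median of -1.62 for the fast muscle markers. In R6/1, Rpl3l measured 4.41, 3.83 and 3.80, against 4.27, 4.42, 3.74 and 3.18 in WT of 6 months, of which 3.18 is the array labelled WT replicate 4. The change was 0.11, and -0.13 without that array. The parent Rpl3, whose protein lies near the peptidyl transferase centre, had the largest SD of any member (1.03). It measured 8.21, 5.95 and 7.63 in R6/1, against 7.61, 5.59, 7.42 and 5.44 in WT of 6 months. In R6/2 it measured 8.61, 7.56, 7.76 and 7.81, against 7.49, 8.48, 7.62 and 5.95 in WT of 9 weeks. The arrays of R6/1 and of both WT groups thus fall into high and low ones, all groups overlap, and the change was 0.55 in R6/2, at an adjusted p of 0.900, and 0.75 in R6/1, at 1.00. The R6/1 change ran from 0.27 to 1.41 with each array left out in turn, and was 0.39 without the array labelled WT replicate 4. The other Rpl3 probe sets were more even, one between 4.42 and 5.39 and one between 1.92 and 2.99 on all arrays. Rps9, a 40S protein, also had probe sets of unequal spread, with an SD of 0.713 in the second and 0.247 in the one used.

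**Figure D3:**
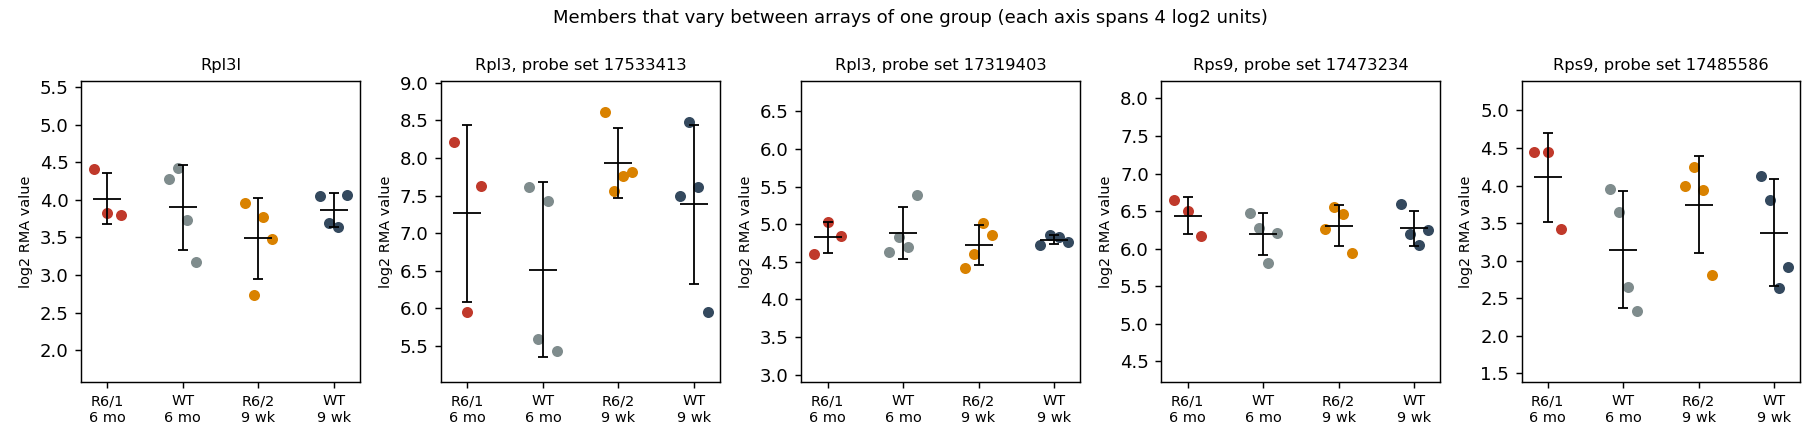
Log2 RMA values (y axis) of Rpl3l and of 2 probe sets each of Rpl3 and Rps9 in each array (points) of the 4 groups (x axis), with group mean and SD (bars). The Rpl3 probe set used for the gene (second panel) spreads from 5.44 to 8.61, while the other one plotted lies between 4.42 and 5.39.

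Of the remaining paralogs and their parents, none was called in either model. Rpl7l1, a paralog of Rpl7, had the lowest p among paralogs in R6/2 at -0.31 (adjusted p 0.755) and was at 0.21 (adjusted p 1.00) in R6/1, or 0.37 without the array labelled WT replicate 4. Rps27l, a paralog of Rps27 known as a p53 target, was at -0.27 in R6/2 and 0.16 in R6/1. Rpl22l1 was at -0.12 in R6/2 and 0.01 in R6/1, its parent Rpl22 at -0.17 in R6/2 and -0.13 in R6/1, and Rps4l, annotated as a transcribed pseudogene, at 0.15 in R6/2 and -0.13 in R6/1. The testis paralog Rpl10l lay between 1.19 and 1.89 and Rpl39l between 2.67 and 3.37 on all arrays. No stalk gene was called in the models. Rplp0, the stalk base, was at 0.01 in R6/2 and -0.03 in R6/1, which became 0.14 without that WT array, and Rplp1 was at 0.00 in R6/2 and 0.13 in R6/1. Rpl13a, in the reference panel used for qPCR in the study, was no member because its probe sets carry other symbols as well, and on the 4 of them changes ran from -0.17 to 0.33 in R6/1 and from -0.03 to 0.29 in R6/2, with no call when each probe set was its own feature. The one shared with Snord32a was lower at 6 months than at 9 weeks in WT eyes (-0.74, called), and the other 3 were at -0.13 to -0.08.

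Over the 15 arrays the members most like Rps3a1 by Pearson's r were Rpl32l (0.67), Rpl6 (0.60), Rpl37 (0.58), Rpl22 (0.57) and Rpl9 (0.54). The least like were Rpl29 (-0.61), Rpl3 (-0.51) and Rpl30 (-0.48). These are descriptions over arrays that share groups and normalization. Rpl32l, a copy of Rpl32, was at -0.25 in R6/2, with an adjusted p of 0.757, and at -0.23 in R6/1, with one of 1.00.

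Age gave more calls. Between WT eyes of 6 months and of 9 weeks, 6 members were called higher (4.04% of all genes were) and 4 lower (5.53% of all genes), 10 of 67 against 9.57% of the table, with 17 members at p under 0.05 against 16.1%. These shares are close to the background. Ages did not overlap for 3 members higher (Rpl6l, Rpl21 and Rpl39; 2.32% of all genes) and 5 lower (Rplp1, Rpl28, Rpl41, Rps7 and Rpl32; 3.64%). With every probe set its own feature, 5.47% of probe sets were called. Of 165 probe sets with a ribosomal symbol, 6 were called higher and 14 lower, which is a larger share. The sets compared are unlike, because 16004 of all 41345 probe sets carry no symbol. Of these 165, 57 carry other symbols as well, and some hold identical values, so they are not independent measures. Each age is a separate cohort of a separate model's littermates, so age and cohort cannot be told apart. The median over members was -0.02, with 30 above 0 and 37 below. Above 0 were 44.8% of members against 49.7% of all genes.

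The members called lower at 6 months were a stalk protein, 2 proteins of the 60S subunit and 1 of the 40S subunit. Rplp1, an acidic stalk protein, measured 9.42, 9.23, 9.19 and 9.39 at 6 months, against 9.84, 9.84, 9.80 and 9.64 at 9 weeks. The ages do not overlap, and the change of -0.48 (SE 0.09, adjusted p 0.0258) is the only one past an adjusted p of 0.05, which 1.06% of all genes passed. Its second probe set was at -0.66 and not called. Rpl28, a 60S protein found in animals and plants but not in budding yeast, measured 9.74, 9.70, 9.61 and 9.98 at 6 months, against 10.29, 10.23, 10.00 and 10.01 at 9 weeks. The highest array at 6 months comes within a few hundredths of the lowest at 9 weeks, and the change was -0.37 (SE 0.11, adjusted p 0.128). Rpl41, the shortest ribosomal protein, measured 9.94, 9.50, 9.92 and 10.02 at 6 months, against 10.26, 10.16, 10.29 and 10.15 at 9 weeks. Its ages do not overlap either, with a change of -0.37 (adjusted p 0.134), while 3 of its 4 other probe sets were at -0.54 to -0.38, 1 of them called lower, and the other was at -0.00. Rps7 was at 2.58, 2.36, 2.50 and 2.68 at 6 months, against 3.05, 2.78, 2.74 and 2.85 at 9 weeks. It also shows no overlap, and at -0.33 its adjusted p of 0.1996 is just inside the threshold. These values are near the array medians, and Rps7 has no other probe set.

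The higher ones were led by Rpl6l, annotated as a pseudogene of Rpl6. It measured 6.74, 7.04, 6.98 and 6.96 at 6 months, against 6.51, 6.47, 6.22 and 6.65 at 9 weeks, with no overlap and a change of 0.47 (SE 0.13, adjusted p 0.0909). Whether its probes also bind Rpl6 mRNA was not tested, and Rpl6 itself was at 0.17 (adjusted p 0.707). Rps27, a zinc finger protein of the 40S subunit, measured 4.45, 5.37, 4.05 and 4.90 at 6 months, against 4.06, 4.28, 4.14 and 3.96 at 9 weeks. One array of 6 months lies among those of 9 weeks, and the change was 0.58 (SE 0.21, adjusted p 0.169). Rpl21, a 60S protein, measured 10.33, 10.45, 10.42 and 10.37 at 6 months, against 10.23, 10.11, 10.19 and 10.19 at 9 weeks. The ages do not overlap, and the change was small at 0.21 (SE 0.08, adjusted p 0.186).

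Rpl35 and Rpl4, 60S proteins at the exit tunnel, depended on the probe set. Rpl35 measured 8.42, 8.47, 8.22 and 8.46 at 6 months, against 8.08, 8.05, 7.87 and 8.30 at 9 weeks, a change of 0.32 (adjusted p 0.140), whereas its 2 other probe sets were at -0.36 and -0.00. Rpl4 measured 9.50, 9.94, 9.70 and 9.73 at 6 months, against 9.34, 9.51, 9.27 and 9.49 at 9 weeks, a change of 0.31 (adjusted p 0.173), whereas a second probe set fell by 0.74 and was called lower when each probe set was its own feature. For both genes the lowest array at 6 months lies among those of 9 weeks. Rpl27a, below the median on every array, was at 0.29 (adjusted p 0.177).

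**Figure D4:**
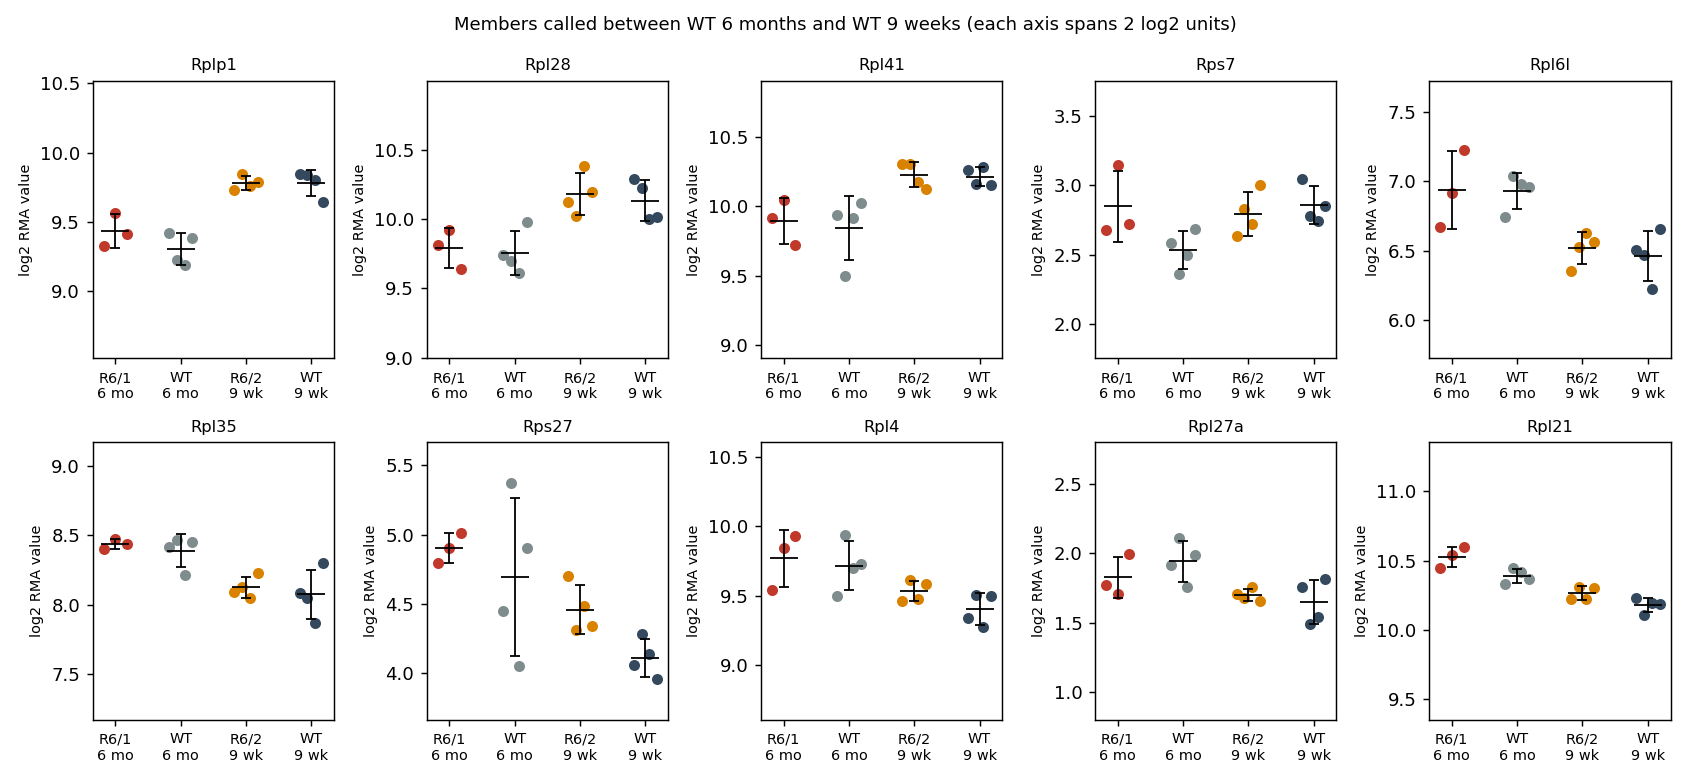
Log2 RMA values (y axis) of the 10 members called between WT 6 months and WT 9 weeks, in each array (points) of the 4 groups (x axis), with group mean and SD (bars). Rplp1, Rpl28, Rpl41 and Rps7 were lower at 6 months and the others higher, and R6/1 and R6/2 arrays did not enter these mean differences.

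The transgenic arrays, which differ in model as well as age, were read beside these calls. Of the 10 members, 9 had a difference of the same sign between R6/1 of 6 months and R6/2 of 9 weeks, and 7 did not overlap in that direction, Rplp1, Rpl28, Rpl41, Rpl6l, Rpl35, Rps27 and Rpl21. Non-overlap was met by 4.63% of all genes upward and 7.02% downward, and by 742 (35%) of the 2122 genes called between the WT ages in the matching direction. Rplp1 averaged 9.44 in R6/1 and 9.78 in R6/2, and Rpl28 averaged 9.79 in R6/1 and 10.18 in R6/2. Rps7 went the other way by 0.05.

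The age calls moved with single arrays. Without the array labelled WT 6 months replicate 4, 1 member was higher (Rpl6l) and 3 lower (Rplp1, Rpl28 and Rpl41). In that fit 1.83% of all genes were called higher and 3.14% lower, below the 4.04% and 5.53% with all arrays. Counts of 6 higher and 4 lower became 2 and 2 without WT 6 months replicate 1, 0 and 1 without replicate 2, 1 and 1 without WT 9 weeks replicate 2, 2 and 5 without replicate 3, 2 and 2 without replicate 4, and 2 and 3 without any single R6/2 array. With the WT arrays alone in the fit 0 members were called in either direction. Not every left-out array is listed, and higher calls reached 9 in one of these fits. The share of all genes called is not given for the other fits. These counts therefore do not show whether members moved more than the whole table. Between these ages, lacrimal and Harderian gland markers were also lower at 6 months (4 of 8 called; mean level 3.27 to 3.55 at 6 months against 3.55 to 5.97 at 9 weeks). Of 7 pigment epithelium markers 3 were called higher (6.42 to 6.70 at 6 months against 5.85 to 6.34 at 9 weeks), and of 10 lens markers 2 were called lower (8.19 to 8.44 at 6 months against 8.31 to 9.00 at 9 weeks). The part of these in the age calls was not tested.

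Genes that act with the ribosome were set beside the members. In both models 0 genes were called in every list, with or without the array labelled WT 6 months replicate 4, which covered 35 initiation factors, 9 elongation factors, 49 ribosome biogenesis genes, 20 regulators of pyrimidine-tract mRNAs, 12 snoRNA host genes and 71 mitochondrial ribosomal proteins. Eef2k, the kinase that inhibits elongation factor 2, was at -0.88 (SE 0.31, adjusted p 0.535) in R6/2 and Tia1, which binds these mRNAs under stress, at 0.36 (adjusted p 0.535). The nucleolar protein gene Nop56 was at 0.31 (adjusted p 0.541) in R6/2, and the snoRNA host Snhg15 at 0.57 (adjusted p 0.964) in R6/1. Mitochondrial ribosomal proteins had a median of -0.07 in R6/2, with 50 of 71 below 0, and 0.03 in R6/1. Of all 22180 genes, 10040 were below 0 in R6/2. Only 0.0766% of all genes were called in R6/2 and 0.00902% in R6/1, so 0 calls in these lists are near that share.

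Between the WT ages these lists gave calls in both directions, 4 higher and 3 lower among initiation factors, 1 and 3 among elongation factors, 6 and 3 among biogenesis genes, 1 and 1 among the regulators, 1 and 1 among snoRNA hosts, and 1 and 9 among mitochondrial ribosomal proteins. Of all genes, 4.04% were called higher and 5.53% lower. Without the array labelled WT 6 months replicate 4 the counts were 0 higher and 2 lower among initiation factors, 0 and 2 among elongation factors, 1 and 1 among biogenesis genes, 0 and 1 among the regulators, 1 and 0 among snoRNA hosts and 1 and 8 among mitochondrial ribosomal proteins, where 1.83% of all genes were called higher and 3.14% lower. Among genes picked out after their values were seen, the elongation factor subunit Eef1b2 was at -0.49 (adjusted p 0.0278), Tpt1, which has a pyrimidine-tract mRNA like the members, at -0.94 (adjusted p 0.0224), and the mitochondrial Mrpl4 at -0.74 (adjusted p 0.0137). The initiation factor gene Eif3a was at 0.33 and the biogenesis gene Wdr12 at 0.51 (adjusted p 0.0258), both called higher. Eef2k was at -0.98 (adjusted p 0.137) at 6 months against 9 weeks, with overlapping ages. Fau, the 40S protein gene outside the symbol rule, was at -0.35 (adjusted p 0.441) and not called.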

How the data were processed

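Total RNA of whole eyeballs was hybridised to Affymetrix Mouse Gene 2.1 ST arrays. The deposited table holds log2 expression values that the authors made by RMA with the affy package (background correction, normalization and summarisation) for 41345 probe sets. Of these 23521 carry 1 gene symbol in the platform annotation, 1820 carry several and 16004 none. The probe set of highest mean stood for each of 22180 genes. Groups came from the labels. One limma (3.58.1, R 4.3.3) fit of 4 group means over 15 arrays gave each comparison, with Benjamini-Hochberg adjustment over all genes. A call needed p under 0.05 and adjusted p under 0.20. The fit was checked on simulated data. The authors' variance filter was kept as an alternative. At 6 months each R6/1 array correlated best with the WT array of the same replicate number (correlations of deviations 0.371, 0.332 and 0.725). Other numbers came close for R6/1 replicate 1 (0.228 and 0.234) and replicate 2 (0.293 and 0.289), so only the replicate 3 pair stood apart. The labels name no shared litter or day. Sequences came from RefSeq (GRCm38.p6). Members and lists were chosen with earlier results of these data known. Genes named were Rps3a1, paralogs with their parents, Rpl13a, Rps6 and the stalk genes, the 10 members of lowest p in each comparison, those most and least like Rps3a1, and the lowest p of each further list. Members with non-overlapping groups, arrays far from their group and second probe sets were singled out with their values known. The number of arrays limits the precision.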

Additional observations from a re-analysis of the deposited data

Results flagged for a closer look

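In 114 groups of 4 arrays (37 named members and the member median), 5 held an array far from the other 3, where chance flags about 1 group in 20. Rpl26 was at 2.81 in R6/2 replicate 3, against 3.57 to 3.65 in the other R6/2 arrays. The same gene was at 3.96 in WT 9 weeks replicate 3, against 2.87 to 2.98 in the other WT arrays of that age. A brighter probe set that Rpl26 shares with Gm15772 was looked up after these values were seen. It measured 8.33, 8.90, 8.53 and 9.065 in R6/2, against 8.85, 8.85, 8.73 and 8.42 in WT of 9 weeks. Replicate 3 was there neither the highest nor the lowest array of its group. At 6 months it measured 9.75, 9.64, 9.50 and 10.06 in WT arrays, all above those of 9 weeks. Rpl29 was at 9.43 in R6/2 replicate 3, against 9.58 to 9.61 in the others. Rpl7 was at 6.66 in WT 6 months replicate 3, against 7.02 to 7.04 in the others. Rpl10l was at 1.89 in WT 6 months replicate 3, against 1.23 to 1.31 in the others. All 5 flags fall on arrays numbered replicate 3. Rpl26 and Rpl29 share the R6/2 array, and Rpl7 and Rpl10l share the WT 6 months array. The interquartile ranges of these arrays were 2.61 for R6/2, 2.43 for WT 9 weeks and 2.17 for WT 6 months. R6/1, with 3 arrays, was not tested in this way.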

How the results depend on the processing

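In the model comparisons no member was called higher, and in R6/1 none lower, under any alternative tried. The 1 member lower in R6/2 became 0 at an adjusted p under 0.05, with arrays centred on their medians and with every probe set its own feature (an alternative chosen after seeing the data), and 2 with the replicate block, and ranged from 0 to 1 over left-out arrays. The block added Rps16 and changed no other call. Only at 6 months did every transgenic array correlate best with its own number, and there only the replicate 3 pair stood apart. Same-number correlations at 9 weeks were 0.077, -0.249, -0.218 and 0.213. No paired analysis was possible between the WT ages, because the arrays of different cohorts share only a number. Between the WT ages, 6 higher and 4 lower became 0 and 1 at an adjusted p under 0.05, 0 and 0 with the WT arrays alone, 1 and 1 with median centring, and 10 and 8 with the array interquartile range as covariate. Higher calls became 3 with probe sets averaged, 12 after further quantile normalization, 10 with array weights and 2 with every probe set its own feature. Of all genes 1.06% were called at an adjusted p under 0.05, and 5.47% of all probe sets when each was a feature. The share of all genes is not given for the other settings. These counts therefore do not show whether members moved more than the whole table. Over left-out arrays higher calls ran from 0 to 9 and lower calls from 1 to 5. With probe sets averaged, Rpl35 reversed to -0.0164 and Rpl4 to -0.21. The cause of these shifts was not tested, other than that fits with fewer arrays have fewer degrees of freedom and averaging brings in the dimmer probe sets.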
